A study of Mus musculus with 36 samples.

Results

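The transcripts of 10 chemokines and IL-6 family cytokines were followed across 36 RNA-seq libraries of mouse embryonic fibroblasts (MEFs): Ccl2, Ccl5, Ccl7, Ccl20, Cxcl1, Cxcl5, Cxcl10, Il6, Il11 and Lif. They are 10 of the 36856 gene symbols in the read-count table and were taken by name, with no fold or level as a threshold. The 10 names were chosen by their measured levels in these same libraries, so every adjusted p-value given for them is a description and not independent support. Cells were WT or PERK-/-, and each genotype received DMSO (the vehicle), thapsigargin (Tg), BtdCPU, halofuginone (HF), BtdCPU with Tg, or HF with Tg. Each of the 12 combinations had 3 libraries. The libraries of one genotype share that genotype in all 6 treatments, and the allele, the origin of the lines and whether a line is 1 clone are not given in the sources used here, nor are doses and times. Nothing in the labels says that replicates were separate cultures, so p-values measure only the spread between these libraries.

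PERK is one of the kinases of the integrated stress response. It sits in the endoplasmic reticulum membrane and phosphorylates the translation factor eIF2α when unfolded proteins accumulate. Thapsigargin empties the calcium store of the endoplasmic reticulum and is a standard way to provoke that stress. Halofuginone blocks prolyl-tRNA synthetase and is known to activate the kinase GCN2, and BtdCPU is known as an activator of the kinase HRI. Fibroblasts secrete chemokines, small proteins that attract leukocytes through G protein-coupled receptors, and cytokines of the IL-6 family, which signal through the shared receptor chain gp130 (gene Il6st). The transcription factors NF-kB, AP-1 and C/EBP are textbook activators of these genes, and AU-rich elements in their 3′ untranslated regions mark many of the transcripts for rapid decay.

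The libraries held between 32454257 and 37178107 counts. Levels are given as CPM, counts per 1000000 counts of a library, after TMM normalization (trimmed mean of M-values), and differences are log2 values ± SE from edgeR's quasi-likelihood test with Benjamini-Hochberg adjustment over 16065 genes. All 10 genes passed the filter on low counts, Ccl20 and Il6 through the groups in which they were high. The gene of PERK, Eif2ak3, had 343 to 402 counts in the PERK-/- DMSO libraries and 992 to 1152 in the WT DMSO libraries. Under Tg it had 917 to 1168 counts in PERK-/- and 2556 to 3759 in WT libraries. All 10 fibroblast markers were detected, with a summed level between 13373 and 39001 CPM. Of 10 leukocyte and macrophage markers, 9 were in the table, and their sum lay between 9.29 and 39.1 CPM and was lowest, 9.29 to 10.6 CPM, in the WT HF libraries. Ptprc had at most 31 counts and Tyrobp at most 1, so other markers of the list carried most of the sum. Of the 9, 4 passed the filter. Tg raised 2 and lowered 1 of them in WT cells and raised 1 and lowered 0 in PERK-/- cells. Over all genes 47.6% and 27.9% were called in these comparisons. The sum of 5 epithelial markers was 0.114 to 0.337 CPM in WT DMSO and 17.4 to 23.7 CPM in WT HF libraries, nearly all of it Krt8 and Krt18, with Epcam at 3 counts or fewer. The sum of 5 endothelial markers was 0.248 to 0.899 CPM in WT DMSO and 3.22 to 5.33 CPM in WT HF libraries. The part of these markers in the HF results was not tested. The third replicate of the WT groups was low for many of the 10 genes, below its group mean in 50 of the 55 gene and treatment pairs with at least 10 counts in every library. In bulk RNA, fewer cells of a type and less RNA per cell cannot be told apart.

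Sequence just upstream of the transcription start was available for 6 of the 10 genes, and the 5 windows below are shown because they carry a match to an NF-kB, AP-1 or C/EBP motif close to the start. They are the 130 bases before the annotated start, 5′ to 3′ on the strand of the gene, from RefSeq on GRCm38.p6, with motif matches in capitals. The capitals mark the NF-kB consensus in the first 3, the AP-1 motif TGANTCA in Il11 and, a second time, in Cxcl10, and C/EBP followed by NF-kB in Il6.
Ccl20, chr1:83116636-83116765, plus strand: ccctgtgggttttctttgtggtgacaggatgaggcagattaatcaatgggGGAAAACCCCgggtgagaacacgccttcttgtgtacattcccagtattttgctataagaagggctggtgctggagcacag
Cxcl1, chr5:90891115-90891244, plus strand: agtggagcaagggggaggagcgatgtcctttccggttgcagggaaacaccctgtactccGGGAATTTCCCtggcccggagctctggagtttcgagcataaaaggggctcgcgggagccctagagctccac
Cxcl10, chr5:92348890-92349019, minus strand: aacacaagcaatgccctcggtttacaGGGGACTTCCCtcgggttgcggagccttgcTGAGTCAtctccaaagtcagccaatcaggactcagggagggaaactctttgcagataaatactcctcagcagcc
Il6, chr5:30012984-30013113, plus strand: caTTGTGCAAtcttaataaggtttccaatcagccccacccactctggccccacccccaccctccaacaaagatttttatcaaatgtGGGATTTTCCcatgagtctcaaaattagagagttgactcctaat
Il11, chr7:4778142-4778271, minus strand: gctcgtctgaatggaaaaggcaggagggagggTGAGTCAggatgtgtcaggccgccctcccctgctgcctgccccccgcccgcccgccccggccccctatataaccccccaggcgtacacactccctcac

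In windows of 250 bases before the start, searched on both strands, the NF-kB consensus occurred in 5 of the 6 genes with a window, namely Ccl20, Cxcl1, Cxcl10, Il6 and Lif. It occurred in 7.25% of 32851 windows of the same length over all genes. The 6 genes had 7 windows, because Il11 has a further annotated start whose window matched none of the motifs searched. By window, the NF-kB consensus occurred in 5 of the 7. The match ended 71 bases before the start in Ccl20, 61 in Cxcl1, 94 in Cxcl10, 35 in Il6 and 169 in Lif. A further NF-kB match in Cxcl10 began 159 bases before its start, and the paired matches of Cxcl1 and of the nearer Cxcl10 site overlap and are one stretch each. TGANTCA occurred in Cxcl10, Il11, Il6 and Lif, against 6.75% of all windows. The core of the interferon-stimulated response element, GAAANNGAA, occurred in Cxcl10 (7.13% of all windows), and the C/EBP motif TTGCNNAA in Il6 (9.56%). TGACGTCA, the cAMP response element, and TGATGNAAT, a C/EBP-ATF element, matched none of the 6 genes, and were found in 1.55% and 0.816% of all windows. The matches describe letters in the windows and were not tested as sites.

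**Figure D1:**
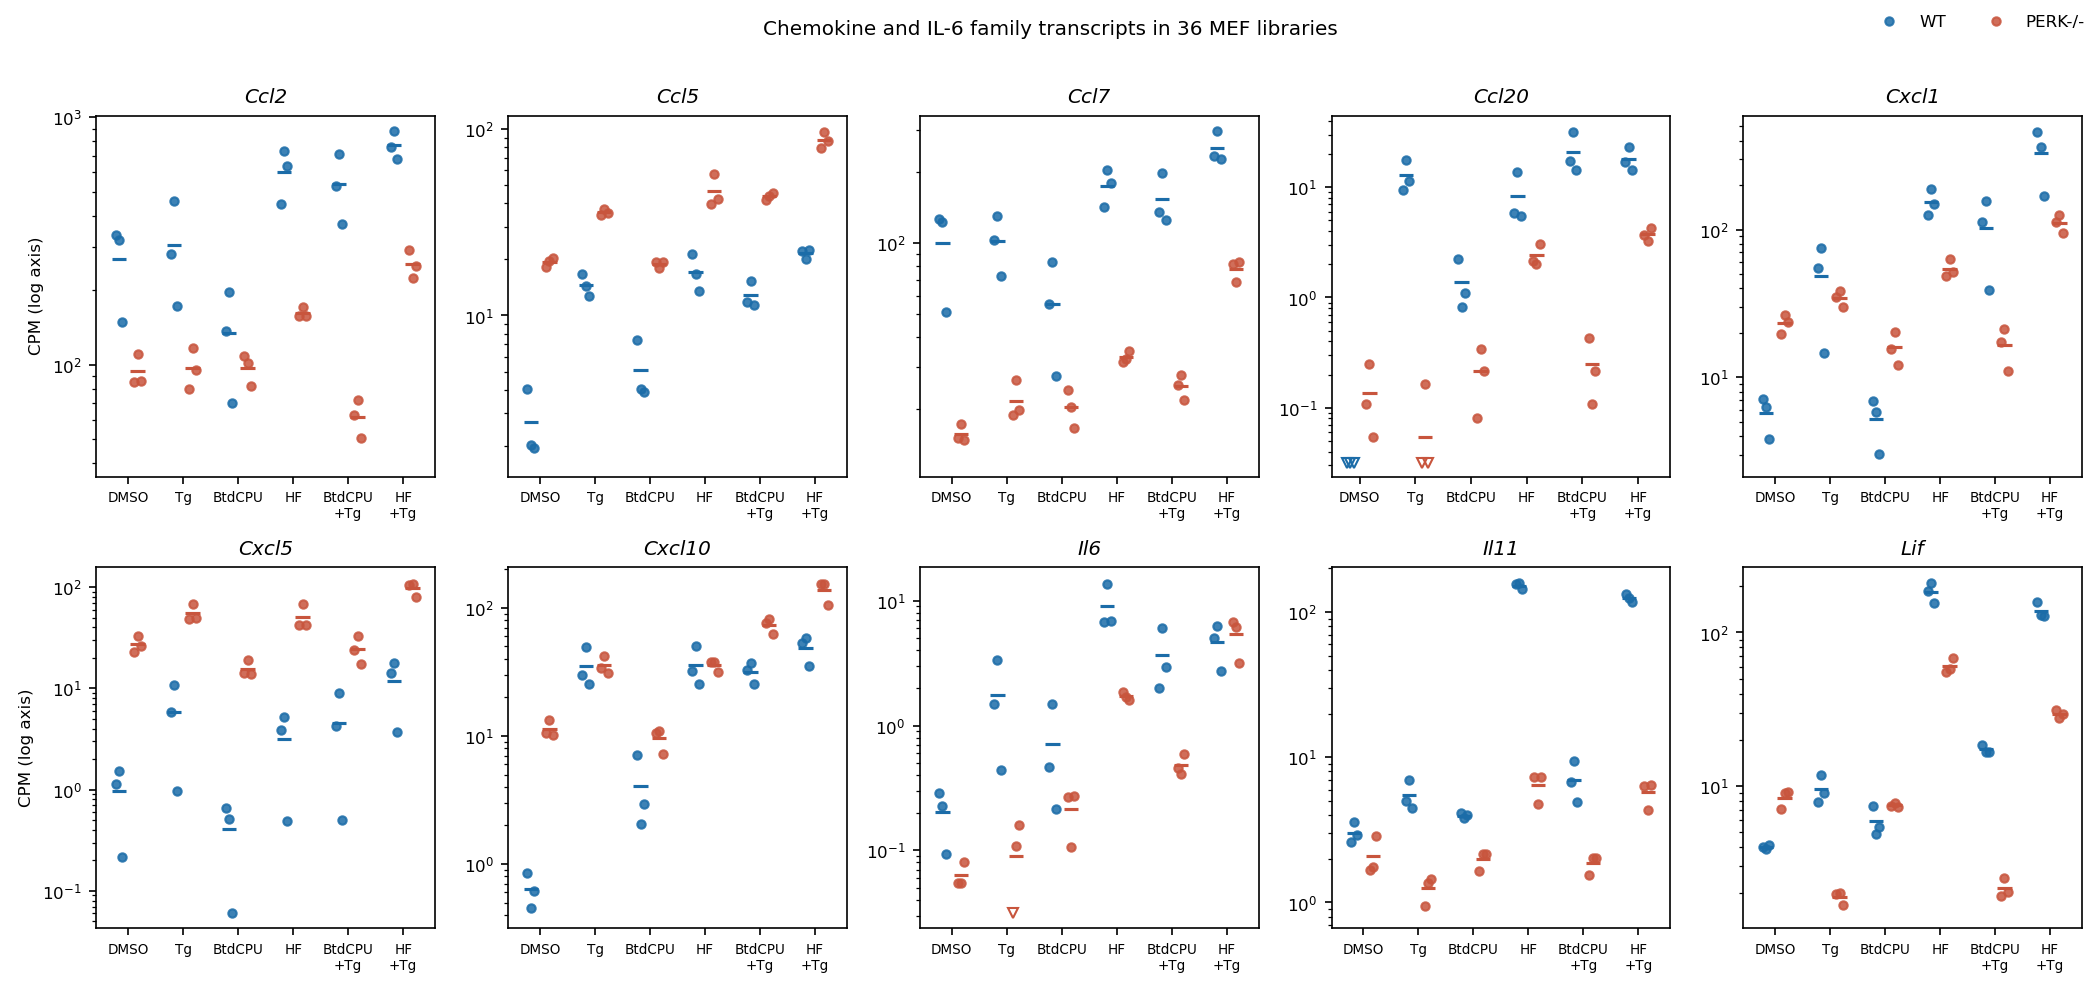
Level of each gene in every library in CPM (log axis), by treatment, with WT in blue and PERK-/- in red. Points are libraries, bars are group means and open triangles at the lower edge are libraries with 0 counts. Lif and Il11 stand highest in the WT HF libraries, while Cxcl5 and Ccl5 are higher in PERK-/- than in WT libraries of every treatment.

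Thapsigargin raised 8 of the 10 transcripts in WT cells and lowered none, against 47.6% of the 16065 genes called in that comparison. Those that rose were Ccl5, Ccl20, Cxcl1, Cxcl5, Cxcl10, Il6, Il11 and Lif. The median of the 10 log2 differences was 2.52, beside 0.02 over all genes tested. In PERK-/- cells Ccl5 and Cxcl10 were called as raised by the same agent and Il11 and Lif as lowered, against 27.9% of genes called. That fit takes 1 spread per gene from both genotypes. Cxcl1, Cxcl5 and Ccl7 also lay above DMSO without overlap there, with means 1.48, 2.03 and 1.38 times as high. Fitted on the compared groups alone, 7 of the 10 were called, with no share over all genes computed for that fit. The difference between the genotypes was itself tested, as the PERK-/- response minus the WT response. It was below 0 for 6 genes (Ccl5, Ccl20, Cxcl1, Cxcl10, Il11 and Lif) and called above 0 for none, against 38.1% of genes called.

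Halofuginone raised 9 of the 10 in WT cells, against 68.2% of genes called, and 9 of the 10 in PERK-/- cells, against 42.2%. Cxcl5 was the remaining gene in both genotypes. The median of the 10 log2 differences was 5.10 in WT and 1.44 in PERK-/- cells, beside 0.00 over all genes tested in each. On the log2 scale the response was smaller in PERK-/- cells for Ccl5, Ccl20, Cxcl1, Cxcl10, Il11 and Lif by the test of the difference, against 35.0% of genes called. That scale depends on the untreated level. The mean of Ccl5 went from 19.3 to 46.3 CPM in PERK-/- cells and from 2.67 to 17.2 CPM in WT cells.

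BtdCPU raised Ccl5, Ccl20, Cxcl10 and Lif and lowered Ccl2 and Ccl7 in WT cells, 6 of 10 genes against 22.2% of genes called. In PERK-/- cells edgeR called 0 of the 10, against 3.59% of genes called, and 0 had an unadjusted p under 0.05. DESeq2 likewise called 0. The replicate number as a block called 1 there, the compared groups alone 1 and no filter 2. Cxcl5 lay below DMSO in these cells without overlap, with a mean lower by a factor of 1.74. Il6 lay above DMSO without overlap, at 24 summed counts against 7. Between the genotypes only the response of Cxcl10 was called by edgeR's test in the fit over all libraries, against 0.199% of genes called. For that difference 6 of the 10 had an unadjusted p under 0.05, and DESeq2 called 2. The replicate number as a block gave 5, no filter 5 and the compared groups alone 0. No share over all genes was computed for these alternatives and separations.

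Halofuginone added to thapsigargin, compared with thapsigargin alone, raised 7 of the 10 in WT cells (45.3% of genes called) and 9 of the 10 in PERK-/- cells (52.7%). In WT cells 8 were called with the replicate number as a block, Cxcl5 beside those 7. On the log2 scale the addition of HF did more in PERK-/- than in WT cells for Ccl5, Ccl20, Cxcl10 and Il6 and less for Il11, against 32.7% of genes called. BtdCPU added to thapsigargin raised only Lif in WT cells, against 2.32% of genes called. With the replicate number as a block, which the libraries of that comparison support, 4 genes rose, Ccl2, Cxcl1 and Il6 beside Lif. In PERK-/- cells BtdCPU added to thapsigargin raised Cxcl10 and Il6 and lowered Cxcl1, against 35.6% of genes called. Cxcl5 and Ccl2 also lay below Tg there without overlap, with means lower by factors of 2.25 and 1.58. Il11 and Ccl5 lay above it without overlap, with means 1.49 and 1.22 times as high. Fitted on the compared groups alone, or with the replicate number as a block, 6 of the 10 were called. No share over all genes was computed for these separations and fits. The effect of that addition differed between the genotypes for Ccl2, Cxcl1, Cxcl10 and Lif, against 20.8% of genes called. Without treatment, PERK-/- cells were higher than WT cells in Ccl5, Ccl20, Cxcl1, Cxcl5, Cxcl10 and Lif and lower in Ccl2 and Ccl7, 8 of 10 against 49.5% of genes called. Comparisons within a genotype share their DMSO or Tg libraries, so their calls are not independent of one another.

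**Figure D2:**
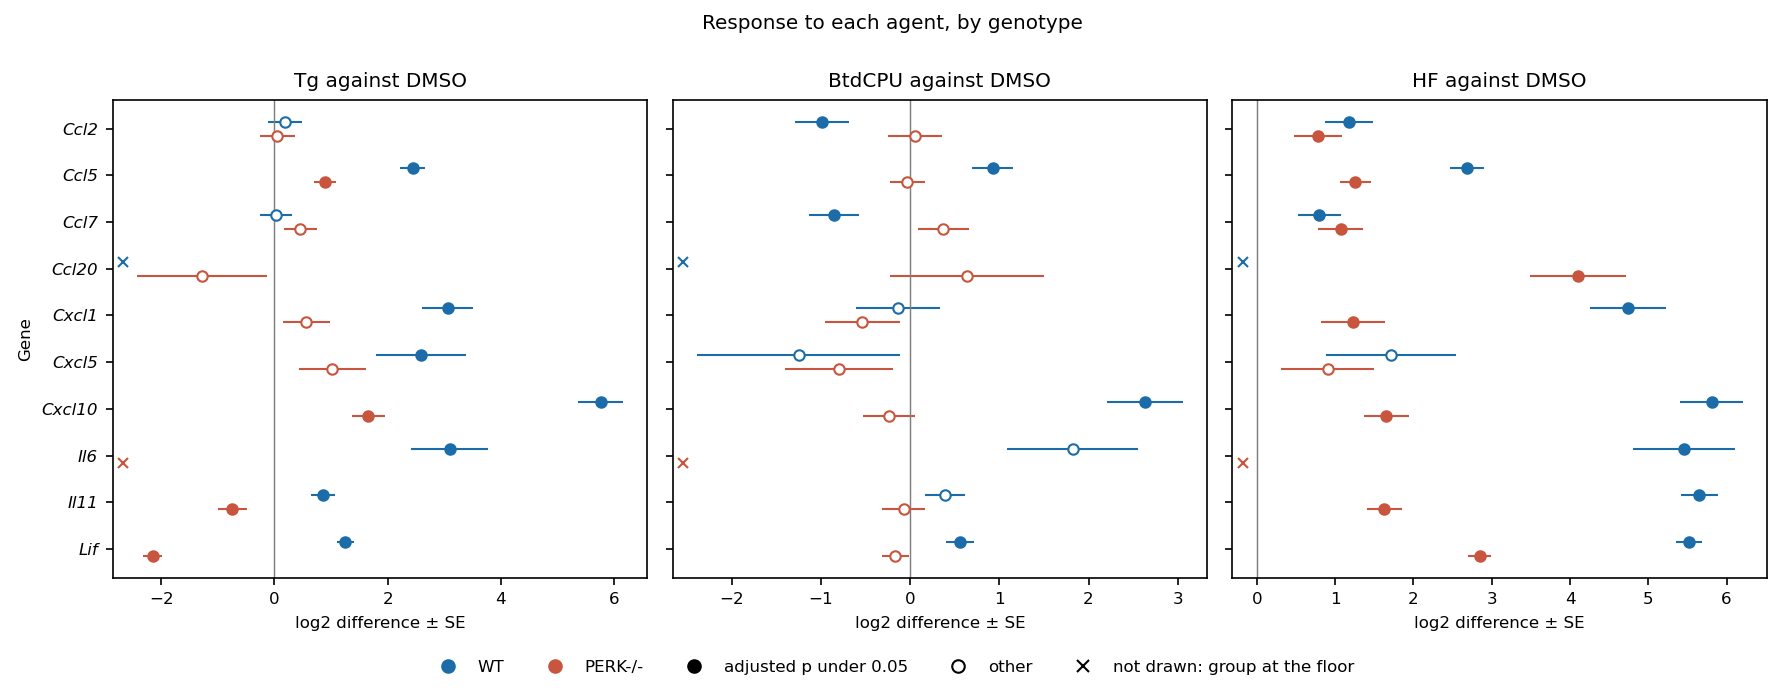
Log2 difference ± SE of each gene against DMSO for Tg, BtdCPU and HF, with WT in blue and PERK-/- in red. Filled points have an adjusted p under 0.05, and crosses at the left edge mark comparisons with a group at or near 0 counts. Under Tg, Lif lies above 0 in WT and below 0 in PERK-/- cells, and under HF the points of both genotypes lie above 0.

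Lif encodes leukaemia inhibitory factor, which signals through Lifr and gp130 and is known for keeping mouse embryonic stem cells undifferentiated. In WT cells its level was 4.0, 3.88 and 4.09 CPM under DMSO and 7.80, 11.8 and 8.97 CPM under Tg. The PERK-/- values were 7.05, 9.04 and 9.09 CPM under DMSO and 1.98, 1.99 and 1.68 CPM under Tg. The WT libraries moved up and the PERK-/- libraries moved down, with no overlap between DMSO and Tg in either genotype. The log2 difference was 1.26 ± 0.15 in WT (edgeR adjusted p = 5.48e-08) and -2.15 ± 0.17 in PERK-/- cells (adjusted p = 1.64e-11), and the responses differed by -3.41 ± 0.23 (adjusted p = 1.38e-12). Both responses passed the test under every alternative processing tried.

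Under HF, Lif reached 186, 209 and 156 CPM in WT and 55, 58 and 68.5 CPM in PERK-/- cells. The group means were 46 times and 7.21 times those under DMSO, with log2 differences of 5.52 ± 0.17 and 2.85 ± 0.15. The genotypes differed in this response by -2.67 ± 0.21 (adjusted p = 8.18e-11). With HF and Tg together the levels were 157, 129 and 129 CPM in WT and 31.3, 27.8 and 29.4 CPM in PERK-/- cells. Adding HF to Tg gave nearly equal differences, 3.86 ± 0.15 in WT and 3.97 ± 0.17 in PERK-/- cells, and the difference between them was 0.11 ± 0.21 (adjusted p = 0.746). BtdCPU with Tg gave 18.4, 16.7 and 16.7 CPM in WT cells, all above the Tg libraries (0.86 ± 0.14, adjusted p = 0.00132), though not called when only the libraries of those groups were fitted (adjusted p = 0.0835). BtdCPU with Tg gave 1.90, 2.50 and 2.03 CPM in PERK-/- cells, overlapping Tg alone. The difference between the genotypes in that addition (-0.67 ± 0.23, adjusted p = 0.0365) lost its call on leaving out any of 9 of the 12 libraries. BtdCPU alone raised Lif by 0.56 ± 0.16 in WT cells (adjusted p = 0.00998), but without WT BtdCPU replicate 1 the value was 0.37 and the adjusted p 0.158.

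Il11 encodes interleukin 11, a gp130 cytokine that fibroblasts secrete and that is known for its role in fibrosis. Its WT levels were 2.60, 3.57 and 2.91 CPM under DMSO, 4.98, 6.97 and 4.50 CPM under Tg and 4.12, 3.80 and 3.99 CPM under BtdCPU. Under HF they were 156, 158 and 144 CPM, 50.4 times the DMSO mean, and with HF and Tg 133, 125 and 118 CPM. The replicates of both HF groups lay close together and far above every other WT library. The PERK-/- values were 1.67, 1.76 and 2.85 CPM under DMSO and 7.31, 4.78 and 7.35 CPM under HF, a 3.10-fold rise of the mean. The HF response was 5.65 ± 0.23 in WT and 1.63 ± 0.22 in PERK-/- cells, a difference of -4.03 ± 0.31 (adjusted p = 8.18e-11). Adding HF to Tg raised Il11 by 4.51 ± 0.22 in WT and 2.19 ± 0.24 in PERK-/- cells, which also differed (-2.32 ± 0.32, adjusted p = 1.04e-06). Il11 was the member for which HF added to Tg did less in PERK-/- than in WT cells.

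Thapsigargin moved Il11 in opposite directions, as it did Lif. The difference was 0.86 ± 0.22 in WT (adjusted p = 0.00160) and -0.74 ± 0.26 in PERK-/- cells (adjusted p = 0.0296), where Tg gave 0.948, 1.36 and 1.44 CPM. The responses differed by -1.60 ± 0.34 (adjusted p = 3.07e-04). The fall in PERK-/- cells became -0.49 without PERK-/- DMSO replicate 3 (adjusted p = 0.215) and -0.58 without PERK-/- Tg replicate 1 (adjusted p = 0.148). Tmem190, which overlaps Il11 in the annotation, had 1 to 14 counts, and Il11 had at least 35 in every library.

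Il6 encodes interleukin 6, the founding member of the family. It was close to the detection floor in untreated cells, with 10, 8 and 3 counts in the WT DMSO libraries and 2, 2 and 3 in the PERK-/- DMSO libraries. Under Tg the counts were 48, 124 and 16 in WT and 0, 4 and 6 in PERK-/- cells. The WT Tg libraries all lay above their DMSO controls, while the PERK-/- libraries of both groups overlapped near 0. The WT difference was 3.10 ± 0.68 (adjusted p = 3.40e-04). The PERK-/- ratio of summed counts, 10 under Tg to 7 under DMSO, was 1.42 after scaling, with an exact 95% interval from 0.487 to 4.38 that covers counting error only. Under BtdCPU the PERK-/- counts were 10, 4 and 10, all above DMSO. The ratio of summed counts, 24 to 7, was 3.37, with an interval of the same kind from 1.41 to 9.26. edgeR did not call this difference (adjusted p = 0.507).

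Under HF, Il6 counts were 218, 466 and 223 in WT and 69, 62 and 58 in PERK-/- cells, so HF lifted the gene off the floor in both genotypes. The WT difference was 5.46 ± 0.65 (adjusted p = 1.06e-08). The PERK-/- ratio of summed counts, 189 to 7, was 27 with an exact 95% interval of 12.9 to 68.2 (adjusted p = 2.14e-05). With HF and Tg the counts were 173, 230 and 96 in WT and 257, 225 and 119 in PERK-/- cells. The added HF raised Il6 by 1.41 ± 0.50 in WT (adjusted p = 0.0225) and by 5.84 ± 0.73 in PERK-/- cells (adjusted p = 4.72e-08), and these differed (adjusted p = 3.36e-04). The PERK-/- value rests on only 10 counts under Tg, and the WT call was lost without WT Tg replicate 3 (0.94, adjusted p = 0.131), and without WT HF+Tg replicate 1 or 2 or WT Tg replicate 1. BtdCPU with Tg gave 17, 15 and 22 counts in PERK-/- cells (2.39 ± 0.88 over Tg alone, adjusted p = 0.0326), a call lost on leaving out any of 4 of the 6 libraries. In WT cells the counts were 74, 229 and 111, a difference of 1.05 ± 0.50 (adjusted p = 0.285) that became 1.17 ± 0.33 with the replicate block (adjusted p = 0.0167). A long non-coding RNA gene, A230098N10Rik, overlaps Il6 in the annotation and had 0 to 16 counts. Whether the counting used strand is not given in the sources used here, so the lowest Il6 counts cannot be told apart from its reads.

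Cxcl1 and Cxcl5 encode chemokines that attract neutrophils through the receptor Cxcr2. Cxcl1 stood at 7.14, 6.30 and 3.81 CPM in WT and 19.5, 26.6 and 23.6 CPM in PERK-/- cells under DMSO, 2.01 ± 0.45 higher in PERK-/- cells (adjusted p = 3.70e-04). Under Tg the WT libraries were at 55.1, 74.8 and 14.7 CPM and the PERK-/- libraries at 34.9, 38.4 and 29.8 CPM. All WT Tg libraries were above their controls, and replicate 3 was well below the others. The difference was 3.06 ± 0.46 in WT (adjusted p = 1.65e-06) and 0.56 ± 0.41 in PERK-/- cells (adjusted p = 0.339), and the responses differed by -2.50 ± 0.60 (adjusted p = 0.00131). Fitted on the libraries of those groups alone, the PERK-/- difference was 0.53 ± 0.13 (adjusted p = 0.00561).

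Under HF, Cxcl1 was at 126, 188 and 149 CPM in WT, 26.8 times its control mean, and at 48.4, 63 and 52 CPM in PERK-/- cells, 2.34 times. The response differed between the genotypes by -3.51 ± 0.61 (adjusted p = 4.30e-05). The PERK-/- rise (1.23 ± 0.41, adjusted p = 0.0165) was not called without PERK-/- HF replicate 2 or PERK-/- DMSO replicate 1 (adjusted p = 0.0555 and 0.0697). HF with Tg gave the highest Cxcl1 mean in each genotype, 329.9 ± 147 CPM (SD, n = 3) in WT and 111 ± 15.7 CPM in PERK-/- cells. The WT HF and HF+Tg libraries overlapped. BtdCPU added to Tg moved Cxcl1 up by 1.09 ± 0.41 in WT (adjusted p = 0.147; with the replicate block 1.12 ± 0.28, adjusted p = 0.0110). The same addition lowered Cxcl1 in PERK-/- cells to 17.4, 21.4 and 11 CPM (-1.05 ± 0.42, adjusted p = 0.0480), a call lost on leaving out any of the 6 libraries and under DESeq2 (adjusted p = 0.0573). The test of the difference between genotypes gave -2.14 ± 0.58 (adjusted p = 0.00774), and -1.66 without WT BtdCPU+Tg replicate 2 (adjusted p = 0.0516).

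Cxcl5 stood far higher in PERK-/- than in WT cells. It was at 1.14, 1.52 and 0.217 CPM in WT and 22.9, 32.9 and 26 CPM in PERK-/- cells under DMSO, a difference of 4.80 ± 0.78 (adjusted p = 7.51e-06) and a 28.4-fold higher mean. In each of the 6 treatments the lowest PERK-/- library exceeded the highest WT library. In WT cells Tg gave 5.88, 10.8 and 0.971 CPM and HF gave 3.90, 5.19 and 0.493 CPM, and replicate 3 of each group overlapped the DMSO libraries. The Tg difference was 2.59 ± 0.80 (adjusted p = 0.00856). It was 1.75 without WT Tg replicate 2 (adjusted p = 0.102) and 2.14 without WT DMSO replicate 3 (adjusted p = 0.0502). The PERK-/- libraries held Cxcl5 at 48, 68.8 and 49.3 CPM under Tg, 42.6, 68.8 and 41.8 CPM under HF and 106, 108 and 79.5 CPM under both. These groups lay above their references with no overlap, yet none was called in the fit over all 36 libraries (Tg 1.02 ± 0.60, HF 0.91 ± 0.60, HF added to Tg 0.82 ± 0.59). That fit takes 1 spread for the gene from both genotypes. Fitted on the compared groups alone, the differences were 0.99 ± 0.15, 0.92 ± 0.18 and 0.86 ± 0.14, with adjusted p-values of 2.98e-04, 7.29e-04 and 1.56e-04. In WT cells HF added to Tg gave 1.02 ± 0.64 (adjusted p = 0.201), and 1.19 ± 0.18 with the replicate block (adjusted p = 1.45e-06).

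**Figure D3:**
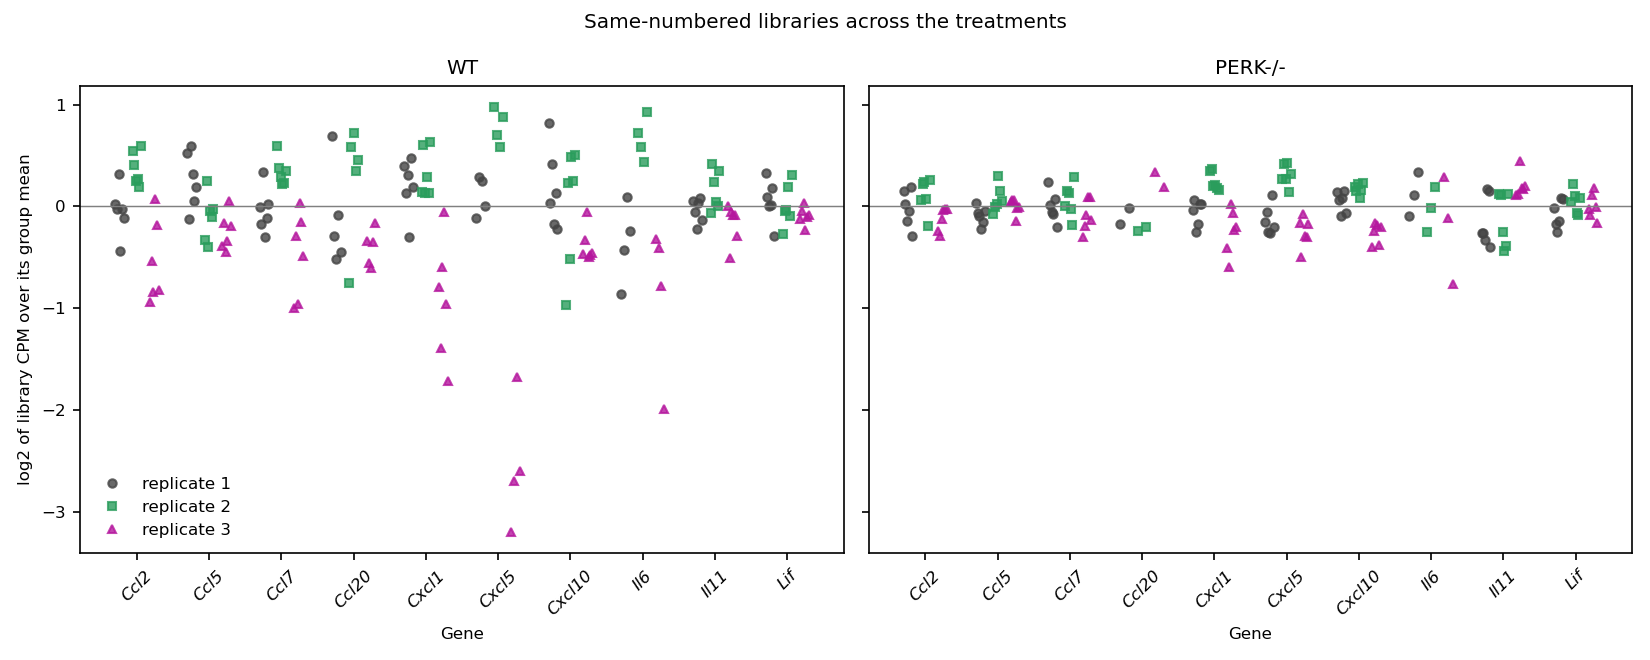
Log2 of each library's CPM over its group mean, for the groups with at least 10 counts in every library, by replicate number in WT and PERK-/- cells. In WT cells replicate 3 lies below the group mean in 50 of 55 values, and the 3 lowest points of the plot are its Cxcl5 values under BtdCPU+Tg, HF and Tg.

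Same-numbered WT libraries were high or low together for several of these genes. Replicate 3 was the lowest of the 3 WT libraries in 6 of 6 treatments for Cxcl5, and in 5 of 6 for Ccl2, Ccl5, Ccl7 and Cxcl1. Replicate 2 was the highest in 5 of 6 WT treatments for Ccl2, Ccl7, Cxcl5 and Il6. Over all groups with at least 10 counts in every library, WT replicate 3 had a median log2 ratio of -0.39 to its group mean, WT replicate 2 of 0.27 and WT replicate 1 of 0.02. The PERK-/- medians were -0.05, 0.13 and -0.08 for replicates 1, 2 and 3. Cxcl10 was lowest in replicate 3 and highest in replicate 2 in all 6 PERK-/- treatments. What the shared numbers stand for was not given in the sources used here. The part of the numbering in the responses was not tested beyond the replicate block.

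Cxcl10 encodes an interferon-inducible chemokine that attracts activated T cells through Cxcr3. In WT DMSO libraries it was at 0.857, 0.450 and 0.619 CPM, and in PERK-/- DMSO libraries at 10.6, 13.2 and 10.1 CPM, a 17.6-fold higher mean (4.13 ± 0.40, adjusted p = 2.98e-10). Tg brought both genotypes to the same range, 30.01, 49.6 and 25.5 CPM in WT and 34.3, 41.9 and 31.2 CPM in PERK-/- cells. HF did likewise, with 32.1, 50.7 and 25.5 CPM and 37.8, 37.8 and 31.4 CPM. The treated levels overlapped between genotypes, and the untreated levels did not. The Tg response was 5.76 ± 0.40 in WT and 1.66 ± 0.29 in PERK-/- cells, a difference of -4.11 ± 0.49 (adjusted p = 7.60e-08), and the HF responses differed by -4.15 ± 0.49 (adjusted p = 1.95e-07).

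The combined treatments reached higher Cxcl10 levels in PERK-/- cells. HF with Tg gave 154, 155 and 106 CPM there, above every library of either agent alone, and 53.6, 58.4 and 35.2 CPM in WT cells, which overlapped both single agents. Added to Tg, HF raised Cxcl10 by 1.95 ± 0.28 in PERK-/- cells (adjusted p = 7.87e-07) and gave 0.49 ± 0.28 in WT cells (adjusted p = 0.159), with a difference of 1.47 ± 0.39 (adjusted p = 0.00417). BtdCPU alone left PERK-/- cells at 10.6, 10.9 and 7.25 CPM, overlapping DMSO, whereas BtdCPU with Tg gave 76.9, 81.4 and 62.3 CPM (1.04 ± 0.28 over Tg, adjusted p = 0.00384). In WT cells BtdCPU with Tg gave 32.6, 37.4 and 25.4 CPM and did not differ from Tg beyond the spread (-0.14 ± 0.28, adjusted p = 0.844). The genotypes differed in that addition by 1.18 ± 0.39 (adjusted p = 0.0305), a call lost without any one of 5 libraries, among them WT Tg replicate 2 (0.89). BtdCPU alone raised Cxcl10 in WT cells to 7.12, 2.07 and 2.93 CPM (2.63 ± 0.43, adjusted p = 3.39e-05). Its difference between the genotypes, -2.87 ± 0.52 (adjusted p = 0.00547), was -2.19 without WT BtdCPU replicate 1 (adjusted p = 0.0681).

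Ccl5 (RANTES) attracts T cells and monocytes, and within every treatment its levels were higher in PERK-/- than in WT libraries. Across treatments the genotypes interleaved. The WT HF+Tg mean, 21.5 CPM, stood above the PERK-/- DMSO and BtdCPU means of 19.3 and 18.9 CPM. PERK-/- DMSO libraries held 18.2, 19.6 and 20.2 CPM and WT DMSO libraries 4.03, 2.02 and 1.95 CPM (2.85 ± 0.22, adjusted p = 2.31e-12). Tg raised it to 16.7, 14.3 and 12.8 CPM in WT and 34.7, 37.1 and 35.6 CPM in PERK-/- cells. HF raised it to 21.4, 16.6 and 13.6 CPM and 39.8, 57.1 and 42 CPM. Every library given Tg or HF lay above the DMSO libraries of its genotype. The responses to Tg were 2.45 ± 0.22 in WT and 0.89 ± 0.19 in PERK-/- cells, a difference of -1.56 ± 0.29 (adjusted p = 7.13e-05), and the HF responses differed by -1.43 ± 0.29 (adjusted p = 3.11e-04). HF with Tg gave the highest mean of all 12 groups, 87.5 ± 9.08 CPM (SD, n = 3), in PERK-/- cells, with no overlap with the next group. Added to Tg, HF raised Ccl5 by 1.29 ± 0.19 in PERK-/- and 0.56 ± 0.20 in WT cells. The difference of 0.73 ± 0.27 (adjusted p = 0.0381) lost its call without any one of 5 libraries (lowest value 0.62, without WT Tg replicate 1), and the WT value without any one of 4 (lowest 0.47, without WT Tg replicate 3). BtdCPU raised Ccl5 in WT cells by 0.92 ± 0.23 (adjusted p = 0.00367), and by 0.57 without WT BtdCPU replicate 1 (adjusted p = 0.106).

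Ccl2 and Ccl7, neighbouring genes on chromosome 11, encode chemokines that recruit monocytes through Ccr2. They were the genes of the 10 called lower in PERK-/- than in WT cells under DMSO. Ccl2 was at 334, 318 and 149 CPM in WT and 84.8, 111 and 86.3 CPM in PERK-/- DMSO libraries (-1.51 ± 0.31, adjusted p = 1.38e-04). Ccl7 was at 127, 122 and 51.3 CPM in WT and 15.1, 17.2 and 14.8 CPM in PERK-/- cells (-2.67 ± 0.30, adjusted p = 5.95e-09). Neither passed the test under Tg in either genotype, with Ccl2 at 0.19 ± 0.30 in WT and 0.05 ± 0.30 in PERK-/- cells, and Ccl7 at 0.03 ± 0.27 and 0.46 ± 0.29. The PERK-/- Tg libraries of Ccl7, at 18.8 to 26.3 CPM, nevertheless lay above all DMSO libraries of that genotype. HF gave 447, 729 and 636 CPM of Ccl2 in WT and 157, 170.5 and 158 CPM in PERK-/- cells, above all controls of each genotype. The differences were 1.18 ± 0.30 in WT (adjusted p = 0.00113) and 0.78 ± 0.30 in PERK-/- cells (adjusted p = 0.0377). The second was not called without any one of 5 of the 6 libraries, or with library size as the only scaling (adjusted p = 0.0571). Ccl7 rose by 1.07 ± 0.29 in PERK-/- cells (adjusted p = 0.00306) and by 0.80 ± 0.28 in WT cells (adjusted p = 0.0114), the WT value being 0.48 without WT DMSO replicate 3 and 0.67 without WT HF replicate 2, neither of which was called.

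HF added to Tg raised both genes in both genotypes and by similar amounts. Ccl2 reached 758, 880.2 and 682 CPM in WT and 292, 223 and 249.97 CPM in PERK-/- cells, and Ccl7 234, 297 and 227 CPM and 81.4, 68.5 and 82.8 CPM. The differences from Tg were 1.34 ± 0.31 and 1.39 ± 0.31 for Ccl2, and 1.31 ± 0.28 and 1.85 ± 0.29 for Ccl7, in WT and PERK-/- cells. The genotypes' responses differed by 0.04 ± 0.43 for Ccl2 and 0.54 ± 0.39 for Ccl7, neither passing the test (adjusted p = 0.967 and 0.314). BtdCPU alone lowered both in WT cells, Ccl2 to 137, 197 and 70.1 CPM (-0.99 ± 0.30, adjusted p = 0.0181) and Ccl7 to 55.1, 83.2 and 27.6 CPM (-0.85 ± 0.28, adjusted p = 0.0249). The BtdCPU and DMSO libraries overlapped for each gene, and both calls were lost without any one of 4 of the 6 libraries, with the smallest values, -0.68 and -0.53, without WT BtdCPU replicate 3. With Tg present, BtdCPU gave 526, 711 and 369 CPM of Ccl2 in WT cells and 62.9, 71.9 and 50.4 CPM in PERK-/- cells. The WT difference from Tg was 0.81 ± 0.30 (adjusted p = 0.148; with the replicate block 0.86 ± 0.23, adjusted p = 0.0154), and the PERK-/- difference was -0.66 ± 0.31 (adjusted p = 0.0930). The genotypes differed by -1.47 ± 0.43 (adjusted p = 0.0132), a call lost without any one of 3 libraries (smallest value -1.17, without WT BtdCPU+Tg replicate 2).

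Ccl20 attracts Ccr6-bearing lymphocytes and dendritic cells, and it had the widest span of the 10 genes in WT cells. The counts were 0, 0 and 0 under DMSO and 306, 655 and 413 under Tg. They were 68, 29 and 36 under BtdCPU and 187, 464 and 176 under HF. Ccl20 was thus not detected in any WT control library and was counted in every treated one. Against a floor of 3 counts per library, the mean level was at least 147-fold higher under Tg (edgeR adjusted p = 2.25e-11), at least 94.4-fold higher under HF (adjusted p = 3.69e-11) and at least 15.8-fold higher under BtdCPU (adjusted p = 1.27e-05). BtdCPU with Tg gave 17.2, 31.5 and 14.3 CPM and HF with Tg 17, 23 and 14.2 CPM, both overlapping the 9.47, 17.7 and 11.5 CPM of Tg alone.

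The PERK-/- counts of Ccl20 were 4, 9 and 2 under DMSO, 0, 6 and 0 under Tg and 16, 4 and 8 under BtdCPU with Tg. Under HF they were 79, 74 and 111, and under HF with Tg 140, 119 and 161. Only the groups given HF stood clear of the controls. The HF difference was 4.10 ± 0.61 (adjusted p = 2.82e-06). HF added to Tg was called as well (adjusted p = 1.54e-08), but Tg alone had 6 counts in all, in 1 of its 3 libraries. The genotypes' responses differed by the test for Tg (adjusted p = 4.16e-06), for HF (adjusted p = 0.00617) and for HF added to Tg (adjusted p = 5.58e-06), with no size given for groups at 0. In untreated cells Ccl20 was at least 1.56-fold higher in PERK-/- than in WT cells against the same floor (adjusted p = 0.0372), a call lost without any WT DMSO library or PERK-/- DMSO replicate 2.

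**Figure D4:**
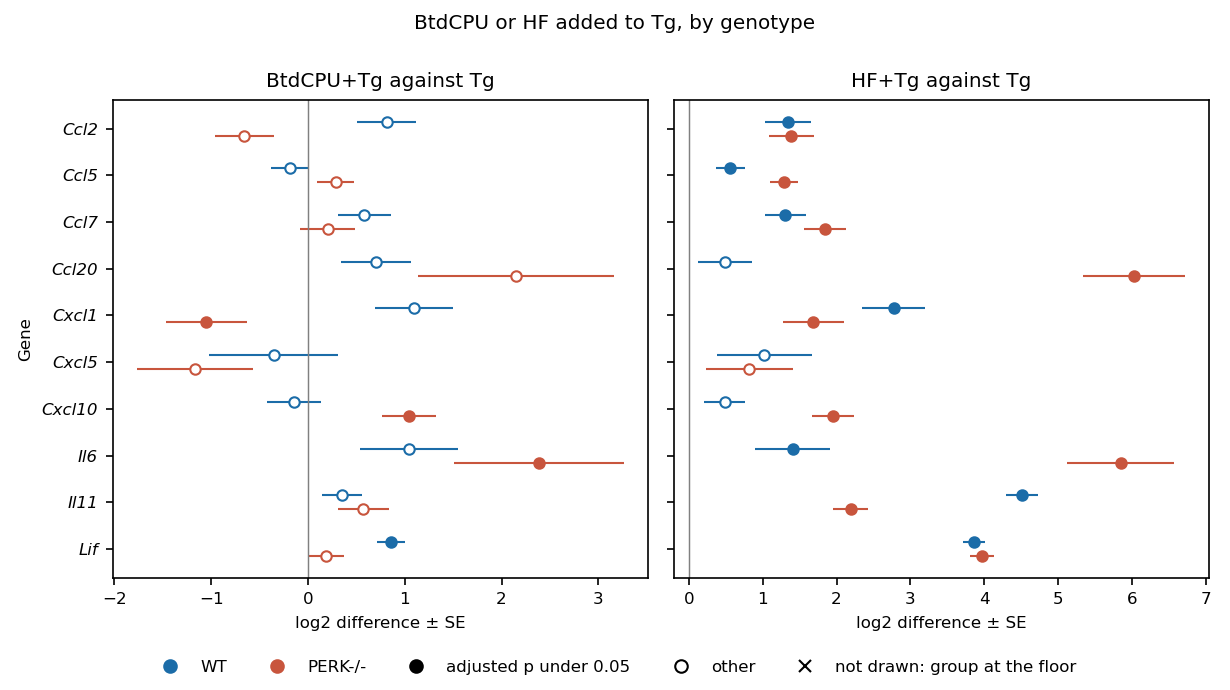
Log2 difference ± SE of each gene for BtdCPU+Tg against Tg and for HF+Tg against Tg, with WT in blue and PERK-/- in red, and filled points where the adjusted p is under 0.05. HF added to Tg gives positive values for all 10 genes in both genotypes, and Lif lies at 3.86 in WT and 3.97 in PERK-/- cells.

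The order of the 12 group means differed between genes. For Lif, 6 of the 11 steps between neighbours in that order were free of overlap between their libraries, and for Il11 and Cxcl10 5 were. For Ccl2, Ccl7, Cxcl5 and Il6 only 2 of the 11 steps were, so the libraries of most of their neighbouring groups overlap. Overlap takes no account of the replicate number and is not a test of a difference. The share of steps free of overlap over all genes was not computed. Lif ran from the WT HF and HF+Tg groups, which overlapped, down through PERK-/- HF, PERK-/- HF+Tg, WT BtdCPU+Tg and WT Tg, each step but the first free of overlap. Ccl20 led in the 4 WT groups given Tg or HF, and Ccl5 in the 4 PERK-/- groups given Tg or HF. Across the 12 group means, on the log2 CPM scale, Ccl2 followed Ccl7 with a Pearson r of 0.95. Ccl5 followed Cxcl5 with 0.91 and Cxcl10 with 0.89, and Lif followed Il11 with 0.89. These are descriptions over 12 points that share libraries and treatments. Over all genes whose mean log2 CPM reached 1, the 3 with the pattern most like Cxcl10 were Oasl1 (r = 0.98), Rspo2 (0.97) and Ifit1 (0.95), of which Oasl1 and Ifit1 are interferon-stimulated genes. Those most like Lif were Osbpl3 (0.98), Klf6 (0.98) and Zfp955a (0.97). Those most like Il11 were Ythdc1 (0.99), Usp7 (0.99) and Ammecr1l (0.98), and those most like Ccl5 were Smc3 (0.97), Larp1b (0.97) and Il6st (0.96).

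Of 28 other chemokine genes, 13 passed the filter on low counts. In WT cells Tg raised 5 of the 13 and lowered 3, against 47.6% of all genes called, and in PERK-/- cells it raised 1 and lowered 1, against 27.9%. The median log2 difference was 0.31 in WT and 0.01 in PERK-/- cells, beside 0.02 and 0.05 over all genes. Among them Ccl9 rose by 1.45 ± 0.25 and Cxcl16 by 0.96 ± 0.24 in WT cells. Cx3cl1, the membrane-anchored chemokine fractalkine, had log2 differences of -2.04 ± 0.16 in WT and -3.36 ± 0.16 in PERK-/- cells, both called as lower. Cxcl12, which retains stem cells and lymphocytes through Cxcr4, had -1.50 ± 0.18 in WT and 0.47 ± 0.18 in PERK-/- cells, lower in the first and higher in the second. Of the 7 other IL-6 family ligands 3 were tested. Clcf1 fell with Tg in PERK-/- cells (-0.57 ± 0.12), and Ctf1 was lower with Tg in WT (-1.21 ± 0.24) and higher in PERK-/- cells (0.75 ± 0.23), opposite in each genotype to Lif.

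On the receiving side, 7 of 14 receptor genes passed the filter. Tg raised 1 and lowered 4 of them in WT cells, against 47.6% of all genes called, with a median of -0.65, beside 0.02 over all genes. HF raised 4 and lowered 2 there, against 68.2%, with a median of 0.54, beside 0.00. Il6st, the gp130 chain, rose by 0.60 ± 0.20 under Tg and 0.95 ± 0.20 under HF in WT cells and was higher in PERK-/- than WT cells under DMSO (0.93 ± 0.20). Its partner Lifr was lower with Tg (-1.01 ± 0.19) and HF (-1.43 ± 0.20) in WT cells, and its values were 0.38 ± 0.17 and -0.23 ± 0.17 in PERK-/- cells, where neither was called. The Lif transcript and the Lifr transcript thus changed in opposite directions in WT cells. Il6ra was lower with Tg in WT cells (-1.70 ± 0.24) and had -0.10 ± 0.24 in PERK-/- cells. Osmr, the oncostatin M receptor, was lower in PERK-/- than WT cells under DMSO (-0.70 ± 0.16). Il11ra1 was lower with HF in both genotypes (-2.10 ± 0.23 in WT and -0.53 ± 0.21 in PERK-/-), a value that is uncertain because the gene has near-identical copies.

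Of 13 genes of the JAK-STAT pathway and its feedback, Tg raised 4 and lowered 6 in WT cells and raised 2 and lowered 4 in PERK-/- cells, with medians of -0.09 and 0.02. Over all genes 47.6% and 27.9% were called. Socs3, a feedback inhibitor that binds gp130 and is induced by its signal, was lower with Tg in WT (-1.19 ± 0.15) and PERK-/- cells (-0.44 ± 0.15). It was also lower with HF in WT (-0.58 ± 0.15) and PERK-/- cells (-0.61 ± 0.15), in which Lif and Il6 rose. Stat3, the main transcription factor downstream of gp130, was lower with Tg (-0.55 ± 0.14) and HF (-1.01 ± 0.14) in WT cells, and had -0.24 ± 0.14 and -0.02 ± 0.14 in PERK-/- cells. Socs2 rose with Tg in WT cells (1.61 ± 0.20) and was lower in PERK-/- cells (-0.75 ± 0.23), as Lif and Il11 were.

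Of 20 genes of NF-kB factors and their feedback, Tg raised 11 and lowered 1 in WT cells (median 0.51) and raised 4 and lowered 6 in PERK-/- cells (median -0.07), against 47.6% and 27.9% of all genes called. HF raised 16 and lowered 2 in WT cells (median 1.39) and raised 10 and lowered 3 in PERK-/- cells (median 0.34), against 68.2% and 42.2%. BtdCPU raised 4 and lowered 0 in WT cells (median 0.00), against 22.2%. On the log2 scale the PERK-/- response to Tg minus the WT response was called below 0 for 12 of the 20 and above 0 for 1. Over all genes 38.1% were called. A value below 0 covers weaker rises as well as falls in PERK-/- cells. Relb rose by 2.05 ± 0.14 and Nfkbie by 1.78 ± 0.22 with Tg in WT cells, while Nfkbie was lower in PERK-/- cells (-1.22 ± 0.22). Tnfaip3, which encodes the inhibitor A20, had 0.39 ± 0.27 with Tg in WT cells (adjusted p = 0.241) and was lower in PERK-/- cells (-1.40 ± 0.29). HF raised Tnfaip3 by 4.72 ± 0.31 in WT and 1.75 ± 0.28 in PERK-/- cells. Nfkbia, the inhibitor IkBα and a classical NF-kB target, had -0.30 ± 0.15 with Tg in WT cells (adjusted p = 0.111) and rose with HF (1.18 ± 0.15).

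Of 14 AP-1 and C/EBP family genes, Tg raised 6 and lowered 3 in WT cells and raised 5 and lowered 5 in PERK-/- cells, against 47.6% and 27.9% of all genes called. HF raised 12 and lowered 0 in WT cells and raised 12 and lowered 1 in PERK-/- cells, against 68.2% and 42.2%. The HF medians were 1.76 and 0.77, beside 0.00 over all genes in each. Atf3 rose with Tg by 6.17 ± 0.26 in WT and 0.78 ± 0.23 in PERK-/- cells, and Ddit3, the stress factor CHOP, by 4.66 ± 0.24 and 1.20 ± 0.21. Fosl1, an AP-1 subunit, had -0.15 ± 0.17 with Tg in WT cells (adjusted p = 0.478) and was lower in PERK-/- cells (-2.67 ± 0.18), in which Lif and Il11 were lower as well. With HF, Fosl1 rose in both genotypes (2.19 ± 0.17 in WT and 0.81 ± 0.17 in PERK-/-). Cebpd was lower with Tg in WT (-1.32 ± 0.25) and PERK-/- cells (-1.16 ± 0.27).

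The AU-rich pentamer ATTTA occurred at least 3 times in the 3′ untranslated region of 7 of the 10 genes, against 35.5% of 20971 protein-coding genes. The longer form TATTTAT occurred in 6 of the 10, against 27.5%. Among genes whose 3′ untranslated region is as long as those of the 10, from 199 to 3180 bases, the shares were 33.6% and 26.1%. Il11 and Il6 each held 10 pentamers, Ccl20 9, and Cxcl1 and Lif 7 each, whereas Ccl5 held 0 and Ccl2 1. Of 9 regulators of the decay of such transcripts, Tg raised 1 and lowered 2 in WT cells and raised 1 and lowered 5 in PERK-/- cells, against 47.6% and 27.9% of all genes called. HF raised 7 and lowered 1 in WT cells and raised 5 and lowered 1 in PERK-/- cells, against 68.2% and 42.2%. Zc3h12a, the RNase Regnase-1 that cleaves Il6 mRNA, rose with Tg in WT cells (0.68 ± 0.21) and was lower in PERK-/- cells (-0.54 ± 0.21). Zfp36, which encodes tristetraprolin, was lower with Tg in both genotypes (-0.55 ± 0.16 in WT and -0.45 ± 0.16 in PERK-/-) and rose with HF in WT cells (0.96 ± 0.16). Zfp36l2 was lower with Tg in WT (-0.74 ± 0.14) and PERK-/- cells (-1.76 ± 0.15).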

How the data were processed

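The deposited values are estimated counts per gene that the authors made from the reads of each of the 36 libraries. Per the submitters' processing notes the build was GRCm39 and DESeq was used. The aligner and counter are not given in the sources used here. Per the labels' protocols the libraries were strand-specific DNBSEQ libraries. The value 0.025 stood for 0 in the deposited counts, 2.69% of the other values were not whole, and all were rounded. Entries named as dates (27, at most 0.278% of counts) were left out, and 39 symbols on 86 entries were summed.

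Genes passing filterByExpr were fitted with edgeR 4.0.16 (R 4.3.3) over all 12 groups, with TMM scaling, a quasi-likelihood test of 16 contrasts and an adjusted p under 0.05 as a call. The fit was tested on simulated counts. Alternatives were DESeq2 1.42.0, library-size scaling, no filter, the compared groups alone, a replicate block and leaving out each library. The members and gene lists were chosen with earlier results of these data known. Named were all 10 members, a fixed set of receptors and feedback genes, and for each list the 2 largest rises and falls with Tg per genotype, of which 1 gene is not reported here. Likeness was ranked over genes whose mean log2 CPM reached 1. Among the tested treatment comparisons within a genotype, same-numbered libraries deviated together in every pair (r over 0.1) for BtdCPU+Tg and HF+Tg against Tg in WT cells. There the block is printed beside the result for the genes whose call it changed. All other values of these comparisons are without the block. Sequences and 3′ untranslated regions came from RefSeq and GENCODE annotation on GRCm38, not the build of the counts.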

Additional observations from a re-analysis of the deposited data

Results flagged for a closer look

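A difference between the genotypes in the response to a treatment was found by the test of the difference itself for 22 combinations of gene and treatment, each given as the PERK-/- response minus the WT response on the log2 scale. For Tg against DMSO these were Lif at -3.41 ± 0.23, Il11 at -1.60 ± 0.34, Cxcl10 at -4.11 ± 0.49, Cxcl1 at -2.50 ± 0.60, Ccl5 at -1.56 ± 0.29 and Ccl20 with an edgeR adjusted p of 4.16e-06. Lif and Il11 rose in WT and fell in PERK-/- cells, while Cxcl10 and Ccl5 rose in both.

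For HF against DMSO they were Lif at -2.67 ± 0.21, Il11 at -4.03 ± 0.31, Cxcl10 at -4.15 ± 0.49, Cxcl1 at -3.51 ± 0.61, Ccl5 at -1.43 ± 0.29 and Ccl20 with an adjusted p of 0.00617. All 6 of these genes rose in both genotypes. For BtdCPU against DMSO it was Cxcl10 at -2.87 ± 0.52.

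For HF added to Tg they were Il11 at -2.32 ± 0.32, Ccl5 at 0.73 ± 0.27, Cxcl10 at 1.47 ± 0.39, Il6 at 4.44 ± 0.92 and Ccl20 at 5.53 ± 0.83. The sizes for Il6 and Ccl20 rest on 10 and 6 counts in the PERK-/- Tg libraries. For BtdCPU added to Tg they were Ccl2 at -1.47 ± 0.43, Cxcl1 at -2.14 ± 0.58, Lif at -0.67 ± 0.23 and Cxcl10 at 1.18 ± 0.39.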

How the results depend on the processing

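No value of the 10 genes changed sign together with its call under any alternative, and 65 of 86 calls held under all of them. Of 160 values, DESeq2 changed the call of 5, library-size scaling of 1, no filter of 34, and the replicate block of 23, all of the last towards a call. Library-size scaling moved the median of all genes by -0.13 for HF in WT cells and by 0.10 for the genotype difference in the HF response. The counts of called members that moved by more than 1.5 times were as follows, and the cause was not tested. With no filter they were 7 for BtdCPU added to Tg in PERK-/- cells (3 in the fit reported), 6 for the same in WT cells (1), 2 for BtdCPU in PERK-/- cells (0), 7 for Tg in PERK-/- cells (4) and 5 for the genotype difference in the BtdCPU response (1). With the replicate block the first 3 were 6, 4 and 1, and the genotype difference in the BtdCPU response was 5. With only the compared groups they were 6, 0 and 1, and 7 for Tg in PERK-/- cells, 2 for BtdCPU in WT cells (6) and 0 for the genotype difference in the BtdCPU response, for which DESeq2 gave 2. Leaving out each library gave 1 to 2 for BtdCPU added to Tg in PERK-/- cells, 1 to 2 for the same in WT cells, 2 to 6 for BtdCPU in WT cells, 0 to 5 for the genotype difference in the BtdCPU response and 1 to 3 for that in BtdCPU added to Tg (4). Same-numbered libraries correlated above 0.1 in 36 of 45 WT pairs and 13 of 45 PERK-/- pairs, and best with their own number in 42 and 35. Depth limits Ccl20 and Il6 in untreated cells, at 15 counts or fewer per group for Ccl20 and 21 or fewer for Il6.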

Other observations

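HF with Tg was also set beside HF alone, as levels and without a test. The share of all genes whose libraries separate likewise was not computed. The separations below are therefore not shown to be particular to these genes. In PERK-/- cells Lif was lower with both agents, 31.3, 27.8 and 29.4 CPM, than with HF alone, 55, 58 and 68.5 CPM, and the libraries did not overlap. Il11 overlapped there, at 6.35, 4.36 and 6.46 CPM and 7.31, 4.78 and 7.35 CPM. In the same cells Cxcl1, Cxcl5, Cxcl10, Ccl2, Ccl5, Ccl7, Ccl20 and Il6 were higher with both agents than with HF alone in every library, for example Ccl7 at 81.4, 68.5 and 82.8 CPM against 31.3, 32.3 and 35.2 CPM. In WT cells Il6 was at 4.99, 6.33 and 2.72 CPM with both agents and 6.75, 13.7 and 6.88 CPM with HF alone, again without overlap. Il11 was likewise lower with both agents there, at 133, 125 and 118 CPM against 156, 158 and 144 CPM, and the libraries did not overlap. Ccl7 in WT cells was at 234, 297 and 227 CPM with both agents, above the 141, 203 and 179 CPM of HF alone. Ccl20 there was at 17, 23 and 14.2 CPM, above the 5.79, 13.6 and 5.43 CPM of HF alone, and the other 6 genes overlapped.

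BtdCPU alone gave Cxcl5 levels of 14, 18.9 and 14 CPM in PERK-/- cells, below all 3 DMSO libraries (-0.80 ± 0.60, edgeR adjusted p = 0.605). Fitted on those groups alone the difference was -0.80 ± 0.15 (adjusted p = 0.00605). In WT cells the third BtdCPU library held 2 counts of Cxcl5, beside 20 and 18 in the others.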
